A study of Mus musculus with 235 samples.

Results

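Heat shock proteins and their DnaJ co-chaperones were followed in punched brain tissue of mice given a single dose of dexamethasone or saline. The family was taken by name: every gene of the count table whose symbol begins with Hspa, Hspb, Hspd, Hspe, Hsph, Hsp90, Dnaja, Dnajb or Dnajc, pseudogenes excluded, with a mean of at least 5 CPM (counts scaled to a common library total) over all libraries. Of 27998 genes in the table, 73 carried such a name and 57 of these reached the level. The rule uses names and overall level only, but the family was picked with earlier results of these data known. The lowest members were Dnajc24 at 9.47 CPM and Hspb6 at 8.90 CPM, and the nearest genes left out were Hspb1 at 4.56 CPM and Dnajb3 at 4.54 CPM. The name pattern also takes in Hspbp1, an exchange factor of Hsp70 and not a heat shock protein itself, and Hspb11. On the CPM scale, which is not per gene length, the most counted members were Hsp90ab1, Dnajc5, Hsp90aa1, Hspa5 and Hspa4l, from 1150 down to 206.4 CPM.

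All animals were adult male C57Bl/6 mice aged 3 months. Dexamethasone, a synthetic glucocorticoid, was injected intraperitoneally at 10 mg/kg into 15 of them, the other 15 received 0.9% saline as vehicle, and tissue was collected after 4 h. Punches were taken from 8 regions that the labels call dCA1, vCA1, dDG, vDG, AMY, PVN, PFC and CER, which gave 235 libraries. Each region and arm was represented by 15 animals, except 14 for PFC dexamethasone, PVN vehicle and vCA1 vehicle, and 13 for dCA1 dexamethasone. A punch mixes neurons, glia and vessels, so fewer cells of a type and less RNA per cell cannot be told apart, and 1 dose and 1 time were sampled.

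Heat shock proteins are the cell's folding machinery. Hsp70 proteins bind unfolded stretches in an ATP-driven cycle that DnaJ (Hsp40) co-chaperones start and exchange factors end, Hsp90 proteins mature clients that include the glucocorticoid receptor, which must pass through Hsp70 and Hsp90 to bind its hormone, and small heat shock proteins hold aggregates in check. Heat shock factor HSF1 induces many of the cytosolic members through heat shock elements, and the unfolded protein response (UPR) induces the endoplasmic reticulum (ER) members through ER stress elements.

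Library totals ran from 268538 to 1451422 counts (median 742957), and all members together took 0.546% to 0.649% of the counts as group means. Fkbp5, a glucocorticoid-induced immunophilin of the receptor complex, rose in all 8 regions, so the dosed arm was recognisable throughout. Several libraries went against their labels or stood apart. The 15 vehicle CER libraries held 0 counts of Gabra6, a marker of cerebellar granule cells. A 0 in the smallest of them allows up to 11.2 CPM. The highest vehicle libraries reached 251.8 CPM in vCA1 and 241.9 CPM in vDG. Gabra6 was above 5 CPM in 5 vehicle and 6 dexamethasone libraries of vDG, and in 1 library of each arm of vCA1. It was also above 5 CPM in 1 dexamethasone library of CER and 1 of PFC. The dCA1 punches carried the granule-cell gene Prox1 at 515 ± 141 CPM (SD, n = 15), as much as dDG at 456 ± 251 (SD, n = 15), against 103 ± 39.1 in vCA1 (SD, n = 14). Wfs1, a marker of CA1 pyramidal cells, had vehicle means of 42.5 CPM in dCA1 and 41.6 CPM in vCA1, below those of 57.7 CPM in dDG, 71.3 CPM in vDG and 96.0 CPM in AMY. Over 6 dentate genes the mean log2(CPM + 1) was 6.27 ± 0.535 in vehicle dCA1 and 5.91 ± 1.02 in vehicle dDG. In vCA1 it was 3.28 ± 0.786 with vehicle and 4.20 ± 0.756 with dexamethasone, a gap between arms that runs beside the vCA1 results below. Dexamethasone replicate 4 of vCA1 held the highest value of its group for 24 of 57 members, among them Hsp90ab1 at 3393 CPM against 1519 CPM in the next library. Hspa1a and Hspa1b are near-identical copies that reads can split uncertainly. Exons of Dnaja4, Dnajc14 and Dnajc30 overlap a gene on the opposite strand over 44.0%, 36.9% and 26.2% of their length, and the strand setting of the counting is not given in the sources used here, so their counts are uncertain.

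Promoter elements of 2 kinds are shown for the genes that the results return to. Windows from 250 bases before to 50 bases after the start were taken from RefSeq on GRCm38.p6 and matched 46 of the 57 members. The ER stress element (CCAAT and CCACG with 9 bases between them, either strand) was found in Hspa5, Hsp90b1 and Dnajc3, 6.52% of members with a window against 0.137% of 27025 genes. The 3-unit heat shock element (GAA, TTC and GAA, or TTC, GAA and TTC, with 2 bases between units) was found in Hsph1, Hspe1, Hspd1 and Dnajb6, 8.70% of members against 0.662% of genes. Its 2-unit form, GAANNTTC or TTCNNGAA, which the longer form contains, was found in 13 members (28.3% against 17.0%). The core of the glucocorticoid receptor site, ACANNNTGT, was found in 0 members against 7.90% of genes, which says only that these letters are not in these windows. The 250 bases before the start are printed below, 5′ to 3′ on the gene's strand, with matches in capitals. Hspa5 encodes BiP, the Hsp70 of the ER, Hsp90b1 its Hsp90 (Grp94) and Dnajc3 the co-chaperone p58IPK. Herpud1, an ER degradation factor and no member, is shown because it rose with dexamethasone. It has no match to the exact letters searched. Other forms of the ER stress element were not searched, so the window is not shown to lack one.
Hspa5 (chr2:34771840-34772089, plus strand): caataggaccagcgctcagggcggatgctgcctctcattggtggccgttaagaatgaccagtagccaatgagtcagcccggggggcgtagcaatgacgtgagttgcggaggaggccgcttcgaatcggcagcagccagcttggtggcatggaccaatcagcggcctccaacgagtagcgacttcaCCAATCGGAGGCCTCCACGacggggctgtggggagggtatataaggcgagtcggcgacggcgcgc
Hsp90b1 (chr10:86705445-86705694, minus strand): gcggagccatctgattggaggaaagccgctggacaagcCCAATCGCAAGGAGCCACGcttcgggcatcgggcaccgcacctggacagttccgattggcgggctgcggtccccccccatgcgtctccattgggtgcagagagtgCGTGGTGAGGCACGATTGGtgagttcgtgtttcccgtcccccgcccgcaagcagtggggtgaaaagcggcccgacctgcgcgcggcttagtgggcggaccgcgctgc
Dnajc3 (chr14:118937682-118937931, plus strand): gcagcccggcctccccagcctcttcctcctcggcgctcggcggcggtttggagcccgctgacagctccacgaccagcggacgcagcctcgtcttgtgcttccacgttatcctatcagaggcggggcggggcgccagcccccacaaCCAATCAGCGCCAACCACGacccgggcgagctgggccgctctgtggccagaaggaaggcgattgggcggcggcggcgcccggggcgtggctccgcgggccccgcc
Herpud1 (chr8:94386179-94386428, plus strand): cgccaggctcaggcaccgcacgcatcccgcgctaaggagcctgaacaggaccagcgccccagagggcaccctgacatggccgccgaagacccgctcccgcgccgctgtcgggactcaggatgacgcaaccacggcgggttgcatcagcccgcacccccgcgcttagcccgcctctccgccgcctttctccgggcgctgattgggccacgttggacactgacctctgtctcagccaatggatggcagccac
Capitals mark the ER stress element, whose first base lies 65 bases before the start in Hspa5, 105 before it in Dnajc3, and 212 and 107 before it in Hsp90b1. The next windows carry heat shock elements in capitals, of 3 units in Hspe1, the mitochondrial co-chaperonin that shares its promoter with Hspd1, and of 2 units in the inducible Hsp70 pair. Hspa1a and Hspa1b differ at 3 of 250 bases and are 98.8% identical, and both matches begin 104 bases before the start.
Hspe1 (chr1:55087898-55088147, plus strand): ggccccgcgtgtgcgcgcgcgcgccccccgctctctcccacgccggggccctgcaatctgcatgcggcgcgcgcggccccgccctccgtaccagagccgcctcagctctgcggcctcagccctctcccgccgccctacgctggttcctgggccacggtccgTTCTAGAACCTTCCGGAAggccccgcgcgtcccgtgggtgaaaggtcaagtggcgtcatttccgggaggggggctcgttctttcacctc
Hspa1a (chr17:34972157-34972406, minus strand): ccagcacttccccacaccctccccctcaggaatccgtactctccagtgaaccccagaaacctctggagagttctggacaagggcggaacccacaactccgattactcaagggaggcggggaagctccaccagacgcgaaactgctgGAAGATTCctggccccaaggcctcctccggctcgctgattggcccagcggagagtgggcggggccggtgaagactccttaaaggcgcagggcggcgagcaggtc
Hspa1b (chr17:34959239-34959488, minus strand): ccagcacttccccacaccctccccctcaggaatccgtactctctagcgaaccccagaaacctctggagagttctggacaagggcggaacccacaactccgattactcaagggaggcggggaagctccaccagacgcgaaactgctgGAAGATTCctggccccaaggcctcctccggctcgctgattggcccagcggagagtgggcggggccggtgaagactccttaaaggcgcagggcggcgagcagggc

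Few chaperone genes passed the test in any region after dexamethasone. Dnajb2 fell in AMY and CER, Hspa1b rose in dCA1 and Dnajb5 rose in vCA1, and no member passed the test in PFC, PVN, dDG or vDG. With the replicate number, which follows the labelled plate, as a block, Dnajc1 rose in PVN (0.26 on the log2 scale, adjusted p = 0.0237) and Dnajb5 in vCA1 no longer passed. Each region was fitted alone with edgeR's quasi-likelihood test, with Benjamini-Hochberg adjustment over all genes tested there and a threshold of 0.05. AMY gave 1 call among 48 members tested, where 5.62% of all genes tested were called, and CER 1 among 50 (6.18% of all genes). PFC and PVN each gave 0 among 50 (6.14% and 5.63% of all genes). In the hippocampal punches, dCA1 and vCA1 each gave 1 among 50 (4.68% and 5.45% of all genes), and dDG and vDG each gave 0 among 51 (3.7% and 3.93%). Taken over regions, 4 of 400 tests of members passed (1%) against 5.17% of tests of all genes. Where no member passed, 7 in PFC, 5 in PVN, 1 in dDG and 5 in vDG had an unadjusted p under 0.05, and DESeq2 called 0 in each of these regions. The median log2 fold change of the members lay between -0.02 in dDG and 0.05 in PFC, beside medians of all genes between -0.02 and 0.00. In PFC 35 of 50 members (70%) had a positive value, against 48.4% of all genes tested, and in AMY 30 of 48 (62.5%) against 47.3%. In vDG it was 22 of 51 (43.1%) against 48.4%. No test pooled the dexamethasone effect over the regions. Dnajc25 was positive in all 6 regions that tested it, with an unadjusted p under 0.05 in 4 (smallest adjusted p 0.167). Hspb8 was positive in 8 of 8, also with 4 under 0.05 (smallest adjusted p 0.0683). Dnajb2 and Dnajc12 were negative in 8 and 7 of 8 regions, with 4 and 1 under 0.05. The filter on low counts left 5 members out of every region, and these were never tested: Dnajc24, Dnajc28, Hspa1a, Hspb6 and Hspb11.

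**Figure D1:**
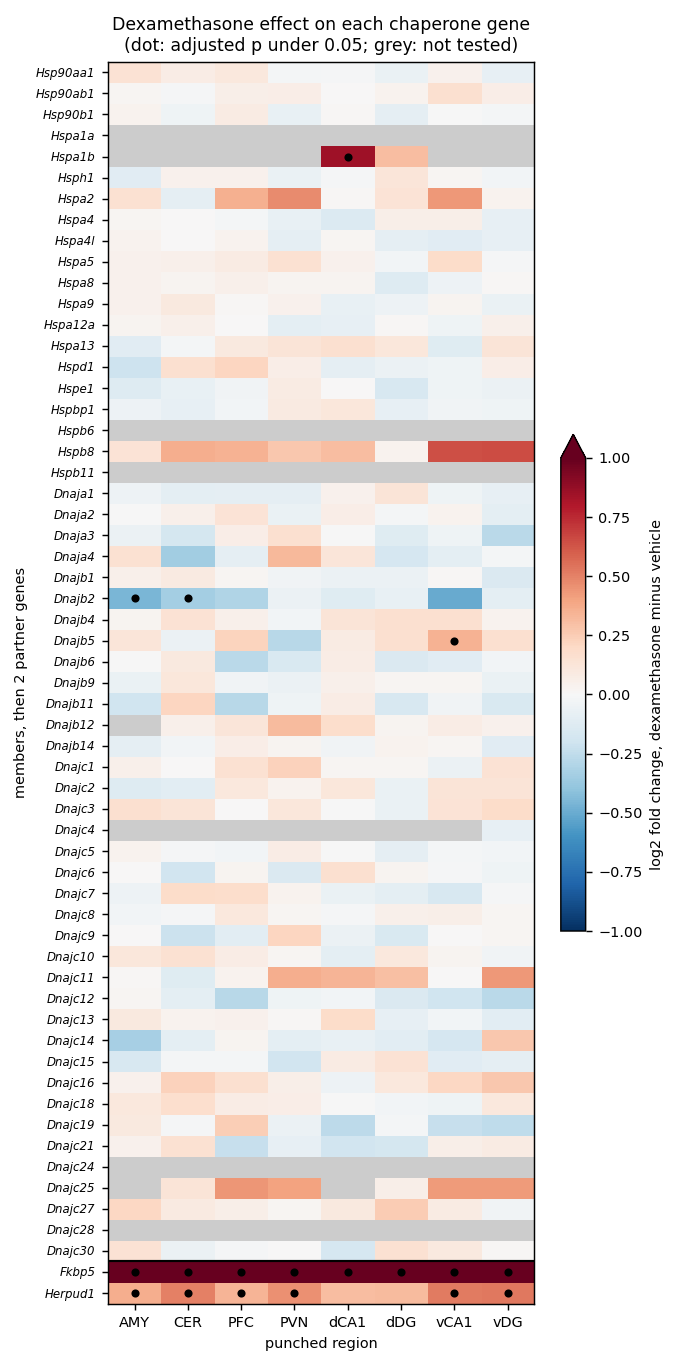
Log2 fold change, dexamethasone minus vehicle, of the 57 members (upper rows) and the partners Fkbp5 and Herpud1 (2 lowest rows) in 8 punched regions, with grey for genes not tested and a dot for an adjusted p under 0.05. The colour scale ends at 1, which Fkbp5 exceeds everywhere. Only 4 member cells carry a dot, while Fkbp5 carries 8 and Herpud1 carries 6.

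The intervals were narrow enough to bound the response. The 95% confidence interval of the fold change lay within 1.5-fold either way in 372 of 400 tests (93%), and within 2-fold in 397. The 3 tests outside the wider bound were Hspa1b in dCA1 and Hspb8 in vCA1 and vDG. Of the 52 members tested anywhere, 42 stayed inside 1.5-fold in every region that tested them. Among genes tested in all 8 regions, 2 of 48 members (4.17%) passed in at least 1 region, against 13.6% of 7924 genes, and 0 members passed in all 8, against 101 genes.

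The Hsp90 chaperones that mature the glucocorticoid receptor did not pass in any region. Hsp90ab1, the constitutive cytosolic Hsp90 and the most counted member (1150 CPM over all libraries), had log2 fold changes from -0.01 in CER to 0.16 in vCA1, where it was -0.001 without replicate 4. In PFC its vehicle libraries ran from 859 to 1400 CPM with a median of 1041, and its dexamethasone libraries from 956 to 1287 with a median of 1078. The arms overlapped, and the difference was 0.06 ± 0.06 (SE). Its vCA1 mean with dexamethasone was 1346 ± 580 CPM (SD, n = 15), or 1200 ± 128 (SD, n = 14) without replicate 4, beside 1202 ± 170 in vehicle (SD, n = 14). Hsp90aa1, the stress-inducible cytosolic form, ranged from -0.08 in vDG to 0.15 in AMY, and Hsp90b1 of the ER from -0.09 in dDG to 0.08 in PFC. The widest 95% intervals of Hsp90aa1 over the regions reached -0.25 and 0.29 on the log2 scale.

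Of the genes that HSF1 induces, Hspa1b passed in dCA1, and Hspa1a, whose values are given with it below, was not tested. The list holds 12 genes, 11 of them members, of which 9 or 10 were tested per region. It gave 1 call of 10 in dCA1, which was Hspa1b, and 0 elsewhere, with medians from -0.06 in vDG to 0.04 in PFC. Hspa8, the constitutive Hsp70, ranged from -0.13 in dDG to 0.05 in PFC. Hsph1, the Hsp110 exchange factor, ranged from -0.11 to 0.12, and Dnaja1 and Dnajb1, the main J-domain partners of cytosolic Hsp70, from -0.10 to 0.13 and from -0.15 to 0.09. The mitochondrial chaperonin Hspd1 ranged from -0.20 to 0.21 and its lid Hspe1 from -0.16 to 0.09. None of these genes passed, and the smallest adjusted p among Hsph1, Dnaja1, Dnajb1, Hspd1, Hspe1 and Hspa4l was 0.443, for Hspd1. Hsf1 itself ranged from -0.17 in AMY to 0.18 in PFC and passed nowhere. The presynaptic co-chaperone Dnajc5 (cysteine string protein), the second most counted member at 360.7 CPM, ranged from -0.09 to 0.07.

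Members of the ER were level too. All 7 members of the UPR list were tested in each region, and 0 passed in any, with medians from -0.03 in dDG to 0.11 in CER. At an unadjusted p under 0.05 the whole family gave 36 of 400 tests (9%), against 13.8% of tests of all genes. Hspa5 ran in PVN from 322 to 551 CPM (median 406) with vehicle and from 337 to 595 CPM (median 449) with dexamethasone. The arms overlapped over most of their range, and the log2 fold change was 0.15 ± 0.08 (SE, adjusted p = 0.462). Over the 8 regions Hspa5 ranged from -0.03 to 0.19, the latter in vCA1, where it was 0.13 without dexamethasone replicate 4. Of the 12 members assigned to the ER, 0 of 10 to 12 tested passed in any region without the replicate block, under which Dnajc1 passed in PVN, and of those assigned to mitochondria 0 of 8. Dnajc1 ran in PVN from 49.3 to 94.0 CPM (median 77.8) with vehicle and from 66.3 to 119 CPM (median 88.8) with dexamethasone. Its arms overlapped, and without the block the log2 fold change was 0.23 ± 0.09 (SE, adjusted p = 0.199).

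Hspa1b, one of the pair of stress-inducible Hsp70 genes (ENSMUSG00000090877, chr17:34956436-34959238, minus strand, GRCm38), rose in dCA1. Vehicle libraries there ran from 0 to 23.3 CPM with a median of 11.1, and dexamethasone libraries from 15.6 to 33.0 CPM with a median of 20.1. Every dexamethasone library lay above the vehicle median, but the arms overlapped. The group means were 12.2 ± 5.94 (SD, n = 15) and 22.1 ± 5.18 (SD, n = 13). The log2 fold change was 0.85 ± 0.18 (SE, 95% confidence interval 0.48 to 1.22), with an adjusted p of 0.00184 by edgeR's quasi-likelihood test. These are few reads: raw counts were 0 to 14 with vehicle (median 8) and 7 to 36 with dexamethasone (median 17). The vehicle library at 0, replicate 4, had a total of 297943 counts, so that a 0 allows up to 10.1 CPM, and without it the difference was 0.82 (adjusted p = 0.00108). The call held in all 14 alternatives that tested the gene, with log2 fold changes from 0.76 to 0.94. In the same libraries 1 of 6 dentate markers was lower (median log2 fold change -0.28), as were 3 of 7 endothelial, 1 of 7 astrocyte and 1 of 7 microglial markers, and their part in the Hspa1b result was not tested.

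Elsewhere the pair did not pass. In dDG, whose dentate markers resembled those of dCA1, Hspa1b ran from 6.31 to 21.7 CPM with vehicle and from 1.59 to 30.1 CPM with dexamethasone. The difference there was 0.31 ± 0.22 on the log2 scale (SE, adjusted p = 0.659). The other 6 regions did not test it. With no filter its log2 fold change there ran from -0.20 in CER to 0.26 in vCA1. Hspa1a (ENSMUSG00000091971, chr17:34969190-34972156, minus strand), tested only without the filter, had positive values in all 8 regions, from 0.12 in vCA1 to 0.66 in dCA1, where its adjusted p was 0.0691. Because the copies could exchange reads, their counts were also summed, and the sum rose in dCA1 by 0.76 on the log2 scale (adjusted p = 0.000697).

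Dnajb2 (HSJ1), a co-chaperone with ubiquitin-interacting motifs that is enriched in neurons (ENSMUSG00000026203, chr1:75236406-75245692, plus strand), was the member that fell in more than 1 region. In AMY it ran from 34.0 to 72.8 CPM with vehicle (median 45.2) and from 19.2 to 51.1 CPM with dexamethasone (median 36.5). The arms overlapped, with means of 48.9 ± 12.3 and 36.2 ± 9.06 (SD, n = 15 each). The log2 fold change was -0.46 ± 0.13 (SE, adjusted p = 0.0244). In CER it ran from 47.2 to 73.4 CPM with vehicle (median 59.0) and from 35.1 to 56.6 CPM with dexamethasone (median 42.4). The dosed CER median thus lay under the lowest vehicle library. The log2 fold change was -0.34 ± 0.09 (SE, adjusted p = 0.0146). Values were negative in all 8 regions. The largest, -0.50 ± 0.18 (SE) in vCA1, did not pass (adjusted p = 0.11), but it passed at -0.57 (adjusted p = 0.0492) without dexamethasone replicate 4.

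The CER call held in all 15 alternatives, while the AMY call was near the threshold. Without vehicle replicate 6 the AMY difference was -0.41 (adjusted p = 0.05004), without dexamethasone replicate 8 it was -0.40 (adjusted p = 0.0506), and without libraries of RNA integrity number (RIN) under 5 it was -0.44 (adjusted p = 0.0682). Over 13 alternatives it ran from -0.50 to -0.40, and 10 of them passed. Markers of oligodendrocytes moved little in these regions: in AMY 1 of 8 was lower and the median log2 fold change was -0.11, and in CER 0 of 8 passed and the median was -0.04. Their summed level in AMY ran from 7157 to 14830 CPM with vehicle and from 4391 to 13780 CPM with dexamethasone. Endothelial markers were lower for 2 of 7 in both regions, microglial markers for 1 of 8 in AMY and 1 of 7 in CER, and 0 of 9 neuronal markers passed. The part of these cells in the Dnajb2 result was not tested.

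Dnajb5, a co-chaperone of the class that acts with Hsp70 (ENSMUSG00000036052, chr4:42949814-42959425, plus strand), rose in vCA1. It ran from 38.4 to 59.97 CPM with vehicle (median 49.3) and from 32.4 to 88.1 CPM with dexamethasone (median 61.9). The dosed libraries spread on both sides of the vehicle range. The log2 fold change was 0.35 ± 0.11 (SE), and the adjusted p of 0.0487 stood just inside the threshold. Only 6 of 16 alternatives passed, with adjusted p from 0.00746 to 0.243. The lowest dosed library was replicate 4, and without it the difference was 0.39 (adjusted p = 0.00746). With the replicate block it was 0.29 (adjusted p = 0.154), without libraries of RIN under 5 it was 0.31 (adjusted p = 0.11), and with the dentate level as a covariate it was 0.32 (adjusted p = 0.243). Dentate markers moved with the arm in vCA1, with 2 of 3 tested genes higher. Vehicle Dnajb5 was itself high in dDG (72.3 ± 18.7 CPM, SD, n = 15) beside vCA1 (49.2 ± 7.53 CPM, SD, n = 14). In vehicle vDG it was at 46.7 ± 14.7 CPM (SD, n = 15), not above vCA1, although the dentate level was 4.16 in vDG and 3.28 in vCA1. Beside these, 4 of 7 endothelial markers were lower in vCA1 and 0 of 8 oligodendrocyte markers passed (median -0.40), while 1 of 2 choroid plexus markers (median -1.39) and 1 of 7 microglial markers were lower. The part of these cells was not tested, and that of dentate tissue in the vCA1 result not beyond that covariate. The 4 calls of members, Hspa1b in dCA1, Dnajb2 in AMY and CER and Dnajb5 in vCA1, had the same direction in 16 of 16 comparisons within a date of punching and in 15 of 16 within a plate. These are the libraries that gave the calls, so the counts are a description only.

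Hspa2 and Hspb8 lay close to the threshold in vCA1. Hspa2, an Hsp70 best known from the testis, ran from 22.9 to 51.0 CPM with vehicle (median 37.1) and from 28.3 to 74.2 CPM with dexamethasone (median 53.9), a difference of 0.44 ± 0.14 (SE, adjusted p = 0.0551). Its value in PVN was 0.47 ± 0.19 (SE, adjusted p = 0.167). Hspa2, like Dnajb5 and Hspb8, was high in vehicle dDG. Hspb8, the small heat shock protein that works with Bag3 in selective autophagy, had positive values in all 8 regions, from 0.03 in dDG to 0.65 in vDG (adjusted p = 0.149). Its vDG libraries ran from 22.2 to 117 CPM with vehicle and from 37.0 to 195 CPM with dexamethasone, so the arms overlapped widely. Without the vDG libraries that held Gabra6 above 5 CPM the difference was 0.44 (adjusted p = 0.593). In vCA1 the difference was 0.65 ± 0.21 (SE, adjusted p = 0.0683). Without replicate 4, which held 157.3 CPM of Hspb8, it was 0.46 (adjusted p = 0.151), among the libraries listed in the authors' variance-stabilised tables it was 0.39 (adjusted p = 0.285), and with the dentate level as a covariate 0.56 (adjusted p = 0.392). DESeq2 called Dnajb5, Hspa2 and Hspb8 in vCA1. Without libraries of RIN under 5 the calls there were Hspb8 (0.77, adjusted p = 0.0219) and Hspa2 (0.48, adjusted p = 0.039), and with RIN as a covariate Hspa2 alone (0.46, adjusted p = 0.039), so that Dnajb5 passed in neither.

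**Figure D2:**
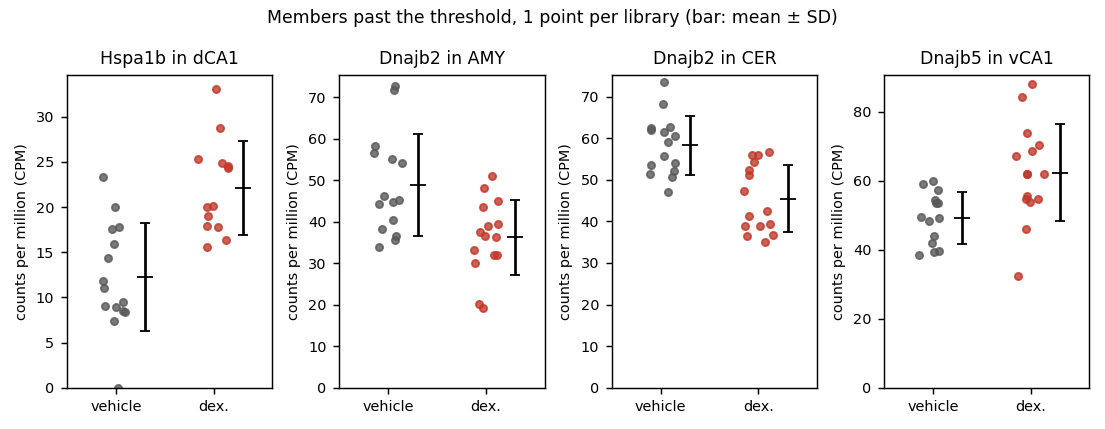
CPM (linear axis from 0) of the 3 members that passed the test, 1 point per library, in the region where each passed, with bars for the mean ± SD. Vehicle and dexamethasone overlap in all 4 panels. For Dnajb2 in CER the vehicle libraries start at 47.2 CPM and the dosed ones end at 56.6 CPM, and for Hspa1b in dCA1 the dosed libraries start at 15.6 CPM and the vehicle ones end at 23.3 CPM.

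Partners of the chaperones were largely level as well, with Fkbp5 and Herpud1 as the exceptions that passed in at least 4 regions. Among 18 co-chaperones of the steroid receptor complex, Fkbp5 rose in all 8 regions, by 1.64 in dDG to 2.79 in PFC on the log2 scale. Its mean in PFC was 12.7 ± 6.40 CPM with vehicle (SD, n = 15) and 90.0 ± 14.6 CPM with dexamethasone (SD, n = 14). The only other call in this list was Fnip2, a folliculin-interacting co-chaperone of Hsp90, in CER (0.76 ± 0.16, SE, adjusted p = 0.001). Of 22 exchange factors and related genes, among them Bag3, Hyou1 and Hsf1, 0 of 18 to 21 tested passed in any region. Subunits of the cytosolic chaperonin CCT gave 0 of 7.

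Herpud1, which helps to clear misfolded ER proteins and is a known target of ER stress signalling, rose in 6 of 8 regions. Its log2 fold changes there were 0.53 in vDG, 0.52 in vCA1, 0.50 in CER, 0.45 in PVN, 0.36 in AMY and 0.34 in PFC. In PVN the means were 99.3 ± 15.4 CPM (SD, n = 14) and 135 ± 14.7 CPM (SD, n = 15). In dCA1 it was 0.31 (adjusted p = 0.19) and in dDG 0.31 (adjusted p = 0.0814), or 0.32 with the replicate block, where it passed (adjusted p = 0.0219). It was the only one of 20 UPR partners to pass in these fits, of which 15 to 18 were tested per region, and 0 of 7 UPR members among the chaperones passed beside it. The vDG value was 0.41 (adjusted p = 0.0698) without the 5 vehicle and 6 dexamethasone libraries that carried Gabra6 above 5 CPM.

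The response was not shown to differ among regions for any member. In 1 fit over all 235 libraries with the animal as a block, 0 of 57 members passed the 7-degree-of-freedom test of region by treatment, against 1.27% of 11053 genes. At an unadjusted p under 0.05 there were 3, Hspa1b (p = 0.0364, adjusted 0.589), Dnajc19 (p = 0.0393) and Dnaja4 (p = 0.0411). The rise of Hspa1b in dCA1 was therefore not shown to exceed its value in other regions. In simulated data this test recovered 13% of genes with a log2 change of 0.5 in PFC alone, so differences of that size could be missed.

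Between regions of vehicle animals most members differed, as most genes did. In the fit over vehicle libraries with the animal as a block, 42 of 56 members tested differed among the 8 regions (73.3% of all genes did), a share near that of all genes. Without CER and dCA1, whose markers raised doubt, 39 of 56 differed (64.9% of all genes), 37 of them shared with the first count. Each region was then set against the mean of the other 7. CER had 16 members higher (24% of all genes were higher there) and 5 lower (23.9%). PVN had 14 higher (20.2%) and 8 lower (20.9%). In PFC and dCA1 the balance was the reverse, with 7 higher (19.6%) and 14 lower (20%) in PFC, and 7 higher (20%) and 15 lower (19.1%) in dCA1. In dDG 10 were higher (17.3%) and 9 lower (15.5%), and in AMY 5 were higher (13.1%) and 5 lower (12%). Fewest members stood apart in vCA1, with 3 higher (12.4%) and 5 lower (7.33%), and in vDG, with 3 higher (6.82%) and 3 lower (3.78%). RNA integrity moved with region: the vehicle mean of RIN was 7.75 in PFC and 5.91 to 6.69 elsewhere. With RIN as a covariate the PFC count was 18 in place of 21.

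**Figure D3:**
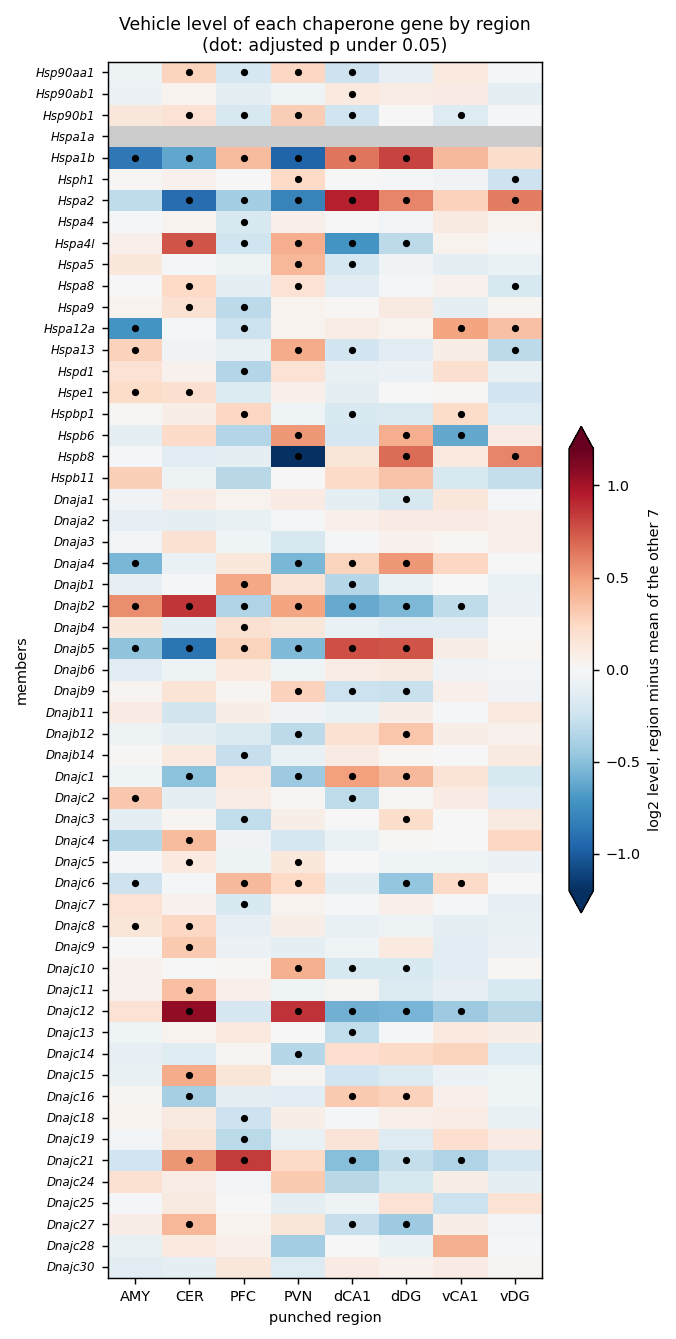
Vehicle level of the 57 members in each punched region, as log2 difference from the mean of the other 7 regions, with a dot for an adjusted p under 0.05 and grey for Hspa1a, which was not tested. Dnajb5, Hspa2 and Hspa1b are high in dCA1 and dDG and low in CER and PVN, and Dnajc12, Dnajb2 and Hspa4l show the opposite pattern.

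The 5 members with the largest F among regions followed a pair of opposed patterns. Dnajb5 (F = 31.8) was at 73.2 ± 16.1 CPM in dCA1 and 72.3 ± 18.7 CPM in dDG (SD, n = 15 each), against 26.8 ± 9.16 CPM in CER (SD, n = 15). Its dCA1 libraries ran from 48.3 to 99.3 CPM and its CER libraries from 8.00 to 50.8 CPM, so they hardly overlapped. Hspa2 (F = 27.0; ENSMUSG00000059970, chr12:76404176-76406934, plus strand) was highest in dCA1, with libraries from 31.0 to 80.7 CPM (median 53.2), and lowest in CER, with libraries from 5.00 to 31.8 CPM (median 16.4). Hspa1b (F = 14.4) was at 13.6 ± 4.95 CPM in dDG (SD, n = 15) and 4.44 ± 2.91 CPM in PVN (SD, n = 14). Dnajc1, an ER membrane co-chaperone (F = 18.4), was likewise highest in dCA1 at 137.6 CPM and lowest in CER at 75.4 CPM. Neighbouring regions in these orders were often alike: Dnajb5 differed by less than the SD between dCA1 and dDG.

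Hspa4l and Dnajc12 followed the reverse order. Hspa4l, an Hsp110-type exchange factor (F = 30.6, or 10.2 without CER and dCA1; ENSMUSG00000025757, chr3:40744495-40796103, plus strand), ran from 204 to 488 CPM in CER (median 302) and from 68.5 to 172 CPM in dCA1 (median 126). No dCA1 library reached the lowest CER library. Dnajc12, a co-chaperone of the aromatic amino acid hydroxylases that make monoamines (F = 28.2; ENSMUSG00000036764, chr10:63382443-63408840, plus strand), ran from 41.3 to 202 CPM in CER (median 88.2) and from 50.6 to 107 CPM in PVN (median 77.9). In dCA1 it ran from 8.56 to 48.9 CPM (median 32.4), below every PVN library. The highest CER library, vehicle replicate 2, raised the CER mean from 80.5 to 88.6 CPM. Dnajb2 (F = 26.0) was at 58.3 ± 7.10 CPM in CER and 48.9 ± 12.3 CPM in AMY, against 23.6 ± 7.46 CPM in dCA1 (SD, n = 15 each). In PVN it was at 46.5 ± 11.7 CPM (SD, n = 14). Oligodendrocyte markers were ordered in a like way in part, with 8 of 8 higher in AMY and CER, 8 of 8 lower in PFC and dCA1 and 0 of 8 called in PVN. Their part in these levels was not tested.

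**Figure D4:**
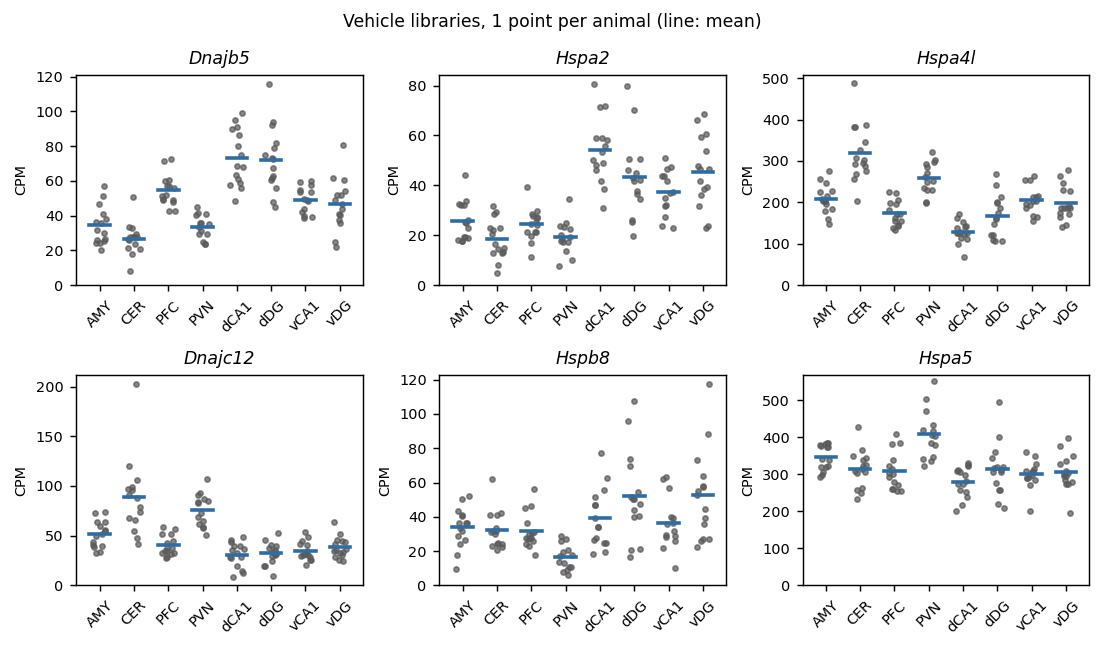
CPM (linear axis from 0) of 6 members in vehicle libraries of the 8 punched regions, 1 point per animal with a line at the mean. Hspa4l and Dnajc12 are highest in CER and PVN, Dnajb5 and Hspa2 highest in dCA1, Hspb8 lowest in PVN and Hspa5 highest in PVN.

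Other members had patterns of their own. Dnajc21, a factor of ribosome assembly (F = 19.8), was highest in PFC at 68.1 CPM and lowest in dCA1 at 30.7 CPM. Dnajc6, the auxilin that uncoats clathrin vesicles at synapses (F = 11.2), was at 177.7 CPM in PFC and 105.4 CPM in dDG. Hspa12a, a divergent Hsp70 relative (F = 15.9), ran from 74.9 to 136 CPM in vCA1 and from 25.5 to 71.0 CPM in AMY, with no overlap. Dnajc27, which joins a J domain to a small GTPase (F = 11.4), was at 177.4 CPM in CER and 106.6 CPM in dDG. Hspb8 (F = 11.2; ENSMUSG00000041548, chr5:116408491-116422864, minus strand) was lowest in PVN, with libraries from 6.15 to 28.9 CPM (median 15.6), against 22.2 to 117 CPM in vDG (median 52.9). Of the 5 most counted members, Hsp90ab1 and Dnajc5 varied least, with the highest region mean 1.15 and 1.12 times the lowest. Both still passed the F test among regions (adjusted p = 0.00591 and 0.0343). The smallest F was that of Dnajb6 (0.457). The 4 genes with the largest F after CER and dCA1 were left out were Hspa12a (24.0), Dnajc12 (23.5), Dnajb5 (21.5) and Dnajc21 (19.5). Over those 6 regions F was 18.4 for Hspa2, 17.2 for Dnajb2, 13.5 for Dnajc1, 10.2 for Hspa4l and 7.87 for Dnajc27, each lower than over 8 regions, and all 5 still passed.

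UPR-inducible ER chaperones stood high in PVN, though ER members as a whole did not. Of the 7 UPR members 5 were higher there than in the mean of the other regions and 0 lower, with a list median of 0.30 on the log2 scale beside 0.00 for all genes tested, where 20.2% of genes were called higher. Hspa5 (ENSMUSG00000026864, chr2:34771970-34777547, plus strand) ran from 322 to 551 CPM in PVN (median 406), against 201 to 330 CPM in dCA1 (median 282). Only the lowest PVN libraries overlapped dCA1. Its difference from the other regions in PVN was 0.40 ± 0.05 (SE, adjusted p = 6.85e-10). Hspa13, an Hsp70-like ATPase of microsomes, was higher by 0.44, Dnajc10 (ERdj5, a reductase of the ER) by 0.43, Hsp90b1 by 0.30 and Dnajb9 (ERdj4) by 0.27. Of all 12 members assigned to the ER, the same 5 were higher in PVN and 2 were lower, with a median of 0.01. Dnajc1 was among the lower, at -0.44 (adjusted p = 4.67e-06). Higher levels in PVN were not confined to ER genes. Of 10 HSF1-inducible members tested, 4 were higher there and 1 was lower, with a median of 0.165. Hspa4l was higher by 0.435, Hsp90aa1 by 0.248, Hsph1 by 0.235 and Hspa8 by 0.173, while Hspa1b was at -0.958. In dCA1 the same 5 UPR genes were lower, with a list median of -0.21, where 19.1% of all genes were called lower. Hspa5 and Hsp90b1 carry the ER stress element printed above, while Dnajc3, which carries it too, was not called in PVN. Oxt, the oxytocin gene, varied widely over these 14 PVN libraries, from 4.93 to 1455 CPM (median 117), and the UPR partners outside the family gave 5 higher and 2 lower of 19 (median 0.10). Among cell type markers in PVN, 7 of 9 of microglia (median -0.40), 4 of 4 of blood and 3 of 3 of choroid plexus were lower, and 0 of 8 endothelial markers passed. Neuronal markers were higher for 3 and lower for 4 of 9, astrocyte markers higher for 1 and lower for 2 of 7, and the 1 ependymal marker tested was higher (0.57). The part of such cells, secretory neurons included, in the ER gene levels was not tested.

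Hspa5 also varied between mice, in part along with the date of punching. After the mean of each region and arm was removed, 21.8% of the variance of its log2 CPM lay between animals, a larger share than in 99.6% of genes, followed by Dnajb9 at 18.4% and Dnajc3 at 13.5%. The median member had 2.64% and the median gene 1.72%. The plate named in the labels moved with this: plate held 18.3% of the Hspa5 variance, 14.4% of Dnajb9 and 16.5% of Dnajc3. The median member had a plate share of 5.04% and the median gene 2.91%. The date of punching held 9.78% of the Hspa5 variance and 3.56% of that of Dnajb9 (median member 1.65%). For Dnajc3 the date share was -0.979%, an adjusted share that can fall below 0. Since each animal was punched on 1 date, the share between animals contains that of date. With plate taken out first, the animal held 20.7%, 14.6% and 11.6%. Each animal's mean deviation in dCA1, dDG, vCA1 and vDG was then set against its mean deviation in AMY, CER, PFC and PVN over 30 animals. For Hspa5 Pearson's r was 0.495 (permutation p = 0.00546, adjusted over 24 relations 0.131) and Spearman's rho 0.371 (permutation p = 0.045, adjusted 0.346). It was 0.594 in vehicle and 0.401 in dosed animals, 0.303 without the 2 animals farthest from the median, and 0.719, -0.143, -0.0107 and 0.157 within the 4 dates of punching that held at least 6 animals. The relation thus did not pass adjustment, rested partly on 2 animals and did not hold within every date. For Dnajb9 r was 0.416 (adjusted p = 0.172 by permutation) and 0.194 without 2 animals, and none of the 24 relations passed.

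**Figure D5:**
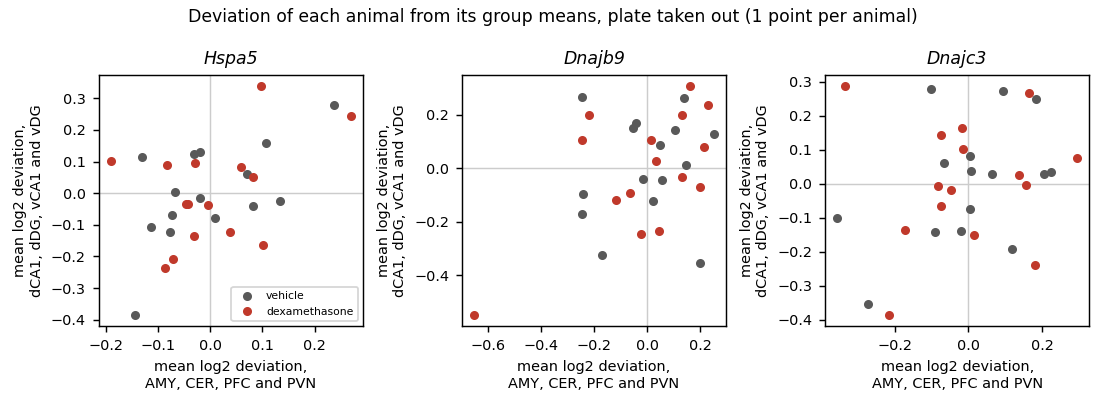
Mean log2 deviation of each of 30 animals from its group means, plate taken out, in dCA1, dDG, vCA1 and vDG (vertical) against AMY, CER, PFC and PVN (horizontal), for Hspa5, Dnajb9 and Dnajc3, with vehicle in grey and dexamethasone in red. The signs match in 18, 19 and 19 of 30 animals, and 1 dosed animal lies far to the lower left for Dnajb9.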

How the data were processed

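Messenger RNA 3′ ends of each punch were sequenced from 1 end with unique molecular identifiers, per the labels' protocols. The authors deposited raw counts per gene for 235 libraries and, per region, variance-stabilised values on a log2 scale for 228 of them, which were used here only to see which libraries were listed. The submitters' processing notes name FastQC 0.11.4, cutadapt, UMI-tools 0.5.4, STAR 2.6.0a, featureCounts 1.6.4, DESeq2 1.30.1, R 4.0.5 and mm10. Symbols were matched for 27645 of 27998 genes.

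Libraries were grouped by title and treatment label, and no pair in a group was within sampling noise (smallest chi-square per degree of freedom 1.34). CPM were scaled over all libraries by TMM (trimmed mean of M values). Fold changes came from edgeR 4.0.16 quasi-likelihood fits per region (filterByExpr, TMM, no covariate), adjusted by Benjamini-Hochberg over all genes tested. The standard error is the size of the log2 fold change over the root of F. Region tests used the animal as a block. The 95% intervals of fold changes come from these fits and cover variation between animals. Depth limits low genes, and the limits given for a count of 0 (3 counts) cover counting error only. Replicates are separate animals. Vehicle and dexamethasone libraries of 1 region with the same replicate number shared the labelled plate in 115 of 115 pairs and the date of punching in 109. Their deviations from the group means correlated with a median r of 0.0454 to 0.207 by region, against -0.0299 to -0.00116 for other numbers, and r was over 0.1 in 71 pairs, so the replicate block is given beside each call it changes. The scripts were tested on simulated data with the same dispersion for all genes. At a log2 change of 0.5 the AMY fit recovered 52% of changed genes, and the test of response among regions 13%. At a change of 1 they recovered 100% and 95%. Relations over animals used 100000 permutations. R 4.3.3, limma 3.58.1, DESeq2 1.42.0, Python 3.11.15, numpy 2.4.6, pandas 2.3.3, scipy 1.17.1 and matplotlib 3.10.9 were used.

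Named were members past the threshold, those with the 12 largest F among vehicle regions, the 5 most counted, those beside the level of 5 CPM, the HSF1-inducible list, partners past the threshold in at least 4 regions, and Hsf1. Fnip2, Hspa2, Hspb8, Dnajc25 and the unadjusted calls were named after their values were seen. The members and all lists were chosen with earlier results of these data known. Alternatives covered scaling, filters, DESeq2, a replicate block, date and plate, RNA integrity, and left-out libraries. Protein features were not analysed here.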

Additional observations from a re-analysis of the deposited data

How the results depend on the processing

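No result reversed under any alternative run. Of the counts of members called after dexamethasone, leaving out libraries with RIN under 5 took AMY from 1 to 0 (Dnajb2 at -0.44 against -0.46), and a minimum of 10 counts in every library, which no longer tested Hspa1b, took dCA1 from 1 to 0. The single call in vCA1 became 3 with DESeq2, 2 without libraries of RIN under 5 (Hspb8 and Hspa2, with Dnajb5 lost), and 0 with upper-quartile scaling, with no filter, with the minimum of 10 counts, without libraries that held Gabra6 above 5 CPM, or with the dentate level as a covariate. With RIN as a covariate the count stayed at 1, but the call was Hspa2 and not Dnajb5. With the replicate block, which pairs libraries of the same plate, PVN gained 1 call (Dnajc1, 0.26, adjusted p = 0.0237), vCA1 went from 1 to 0 calls, and Herpud1 in dDG passed. It changed no other call of a member, Fkbp5 or Herpud1. For vehicle levels, the minimum of 10 counts tested only 23 members, of which 19 differed among regions, and calls against the other regions numbered 11 in PFC and in PVN, 10 in dCA1, 9 in CER, 7 in dDG, 4 in AMY and 3 in vDG. Without a filter vCA1 had 5 calls, and without the Gabra6 libraries vDG had 2. The cause of these changes was not tested except where fewer genes or libraries entered. The alternative without CER and dCA1, the summed Hspa1 copies, the Gabra6 libraries, plate in the animal share and the left-out extreme libraries were chosen after seeing the data. Members counted under about 10 reads per library, Hspa1a and Hspa1b among them, are limited by depth, and the 1 dose and time set the scope.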
